A study of Homo sapiens with 3 samples.

Results

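The genes described are the aminoacyl-tRNA synthetases and the 3 scaffold proteins that hold some of them together, 41 genes of the 27574 named in the count table. They were chosen by gene symbol alone, with a pattern that takes the synthetase symbols, AIMP1, AIMP2 and EEF1E1, so no measured value decided membership. Gene counts from RNA sequencing covered 3 H82R libraries, called replicates 1, 2 and 3. The labels give the ATCC line H82, an established human small cell lung cancer line grown in RPMI medium with fetal bovine serum, and etoposide plus cisplatin as the treatment of every library. No untreated or parental sample is among the libraries, so the values are levels in treated cells and their spread, and not a drug effect. Whether the libraries are separate cultures is not stated in the labels, so a p-value for a level or a ratio reflects library-to-library spread that may be technical. A p-value for a difference between the libraries is set against counting error of reads only, and such a difference may be technical too.

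Aminoacyl-tRNA synthetases join each amino acid to its own tRNA at the cost of ATP, and the ribosome reads only tRNAs charged in this way. Most amino acids have a cytosolic enzyme and a separate mitochondrial enzyme (symbols ending in 2), both encoded in the nucleus, while GARS and KARS each give 1 enzyme to both places. Several cytosolic enzymes sit with the scaffold proteins AIMP1, AIMP2 and EEF1E1 in the multisynthetase complex. When uncharged tRNA builds up, the kinase encoded by EIF2AK4 (GCN2) slows translation and lets the transcription factor ATF4 accumulate, and ATF4 is known to activate amino acid synthesis and transport genes and the genes of many cytosolic synthetases. ATF4 does so at a composite element that it binds with C/EBP proteins.

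That element is shown here because, the 8 members whose levels varied most between the libraries are all known ATF4 targets. RefSeq promoter windows on GRCh38.p14, which run from 250 bases before a gene's start to 50 bases after it, were found for 33 of the 41 genes. The letters TGATGNAAN, searched on both strands, occurred in 6 of the 10 windows found for the 12 known ATF4 targets, in 1 of the 23 windows of the other members, and in 3.67% of all 27305 windows. Of 16 genes of uncharged tRNA sensing and the ATF4 response, described below, 15 had a window. The letters occurred in 3 of these, ASNS, CHAC1 and SLC3A2. In the lines that follow the capitals mark the match, each sequence is read along the strand that holds it, and the ASNS window, from the asparagine synthetase gene that is a classic ATF4 target, is added for comparison.
AARS: ctaacttggcTGATGCAACtgcgagaaaa
CARS: tcctagaatcTGATGCAACcgccgccccg
IARS: cgcacggaggTGATGCAACgcgctgaaaa
MARS: aatccctcgcTGATGCAACcggaaccggc
NARS: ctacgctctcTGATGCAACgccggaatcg
TARS: ctggaccagcTGATGCAATcgaaaggcgc
YARS2: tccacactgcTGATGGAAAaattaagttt
ASNS: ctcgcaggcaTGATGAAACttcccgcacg
The windows lie at chr16:70289676-70289704 (AARS, plus strand), chr11:3057408-3057436 (CARS, plus), chr9:92293693-92293721 (IARS, plus), chr12:57488053-57488081 (MARS, minus), chr18:57621804-57621832 (NARS, minus), chr5:33440956-33440984 (TARS, minus), chr12:32756076-32756104 (YARS2, minus) and chr7:97872458-97872486 (ASNS, minus). AARS, CARS, IARS, MARS and NARS share the 9 letters TGATGCAAC, and TARS differs from them in the last letter of the match. The match in CARS, IARS, MARS, NARS and TARS begins within 14 bases of the annotated start, and that of AARS 188 bases before it. The known targets EPRS, GARS, SARS and WARS had a window without these letters, and LARS and YARS had no window in the table. An E-box, CACGTG, occurred in 4 of the 33 windows (CARS2, EARS2, IARS and MARS2) and in 7.43% of all windows. A match describes the letters and is not evidence of binding, and the list of known targets rests in part on such elements.

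Replicates 1, 2 and 3 held 25013265, 42610181 and 23868201 counts, so replicate 2 was the deepest. A gene is called detected if no library held fewer than 10 counts of it, which was the case for 14612 genes and for all 41 members. All 8 small cell lung cancer markers were detected, with a summed level of 1333 to 1345 CPM (counts in each 1000000 of the effective library size). Single markers were less even than this sum. NEUROD1 had 411, 332 and 370 CPM in replicates 1, 2 and 3, and ENO2 had 205, 275 and 219. Of the other cell types, 3 of 5 leukocyte markers (30.6 to 40.2 CPM in sum, highest in replicate 2), 2 of 5 fibroblast markers (3.30 to 5.60 CPM), 2 of 4 endothelial markers (1.09 to 1.79 CPM) and 1 of 4 squamous or airway markers (0.564 to 1.34 CPM) were detected. The leukocyte sum was mostly CD68, while the defining leukocyte marker PTPRC had 6, 10 and 7 counts and KRT5, SFTPC and SCGB1A1 had none; their part in the differences between libraries was not tested.

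Synthetase genes took 0.721%, 0.958% and 0.759% of all counts in replicates 1, 2 and 3. The 12 known ATF4 targets alone took 0.396%, 0.632% and 0.451%, whereas the 9 other cytosolic or dual enzymes took 0.207%, 0.217% and 0.197% and the 17 mitochondrial enzymes 0.109%, 0.102% and 0.104%. Nearly all of the gap between replicate 2 and the other libraries thus lay in the ATF4 target group. In bulk RNA a difference in how many cells express a gene and one in its RNA per cell cannot be told apart.

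Most synthetase genes stood above the median detected gene. Levels of different genes are compared as CPM per kb of exon, on which the median detected gene stood at 5.59. By limma's one-sample test against that median, Benjamini-Hochberg adjusted over the 13527 detected genes of known length, with a threshold of 0.05, 32 of the 41 members were above it, 3 were below and 6 were not distinguished. Of all genes tested, 45.3% were above and 45.1% below. The median member lay 1.81 above the median gene on the log2 scale. Length was that of all exons of a gene joined; with the longest coding transcript instead, 6 members moved by more than 1.5 times against the median gene, all upward, namely CARS2, CARS, FARS2, YARS, MARS and HARS.

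**Figure D1:**
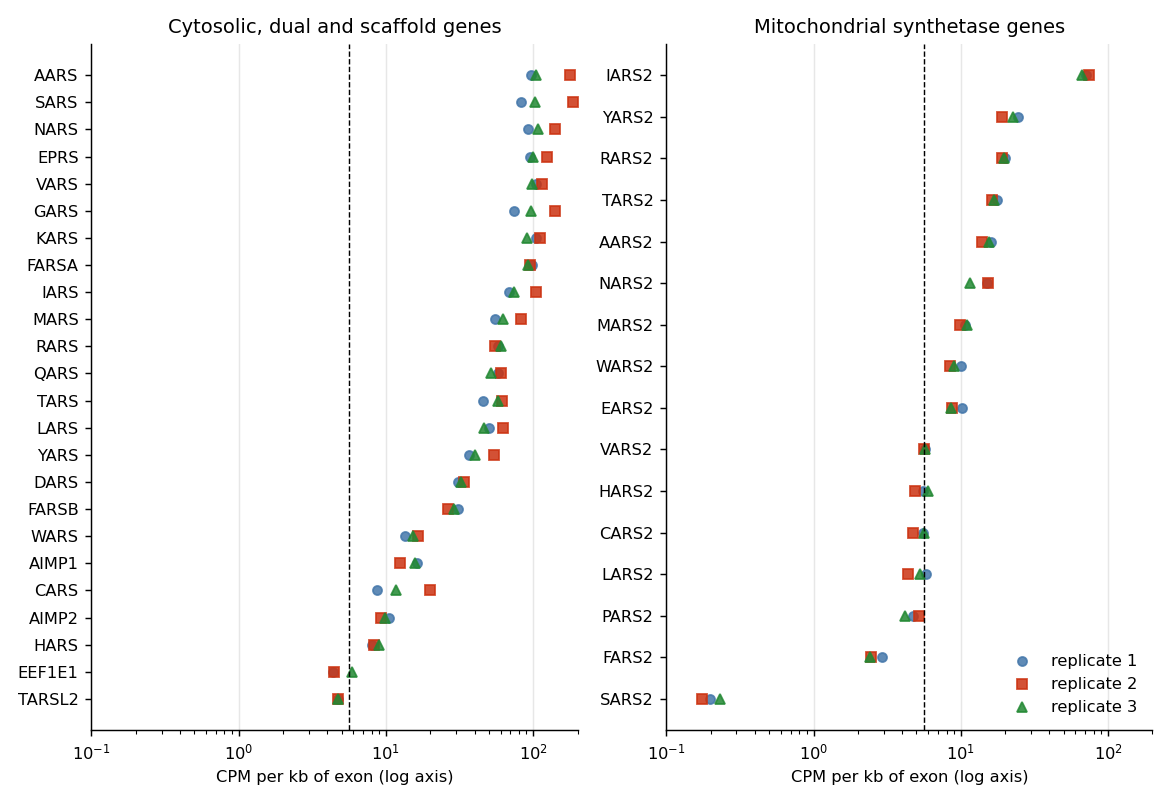
CPM per kb of exon (log axis) of 40 members in each of the 3 libraries, 1 symbol per library, with the median detected gene (5.59) as a dashed line. The cytosolic enzymes reach 127 on average for AARS, IARS2 is the highest mitochondrial enzyme at 70.5, and SARS2 is the lowest member at 0.202.

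Cytosolic and dual enzymes were the most abundant, with medians of 56.7 and 103 CPM per kb, against 9.14 for the mitochondrial enzymes. All but 1 of the 19 cytosolic genes and both dual genes were above the median gene, against 10 of 17 mitochondrial genes and 2 of 3 scaffold genes. AARS, the alanine enzyme, had 97.0, 179 and 105 CPM per kb in replicates 1, 2 and 3. SARS, for serine, had 83.2, 186 and 102 CPM per kb. NARS, for asparagine, had 91.6, 140 and 108 (mean 113 ± 24.4, SD, n = 3). In all 3 genes replicate 2 was the highest and replicate 1 the lowest, and the spread between libraries exceeded the difference between their means. EPRS, a fused enzyme for glutamate and proline, stood at 106 ± 15.1 CPM per kb and VARS, for valine, at 106 ± 8.16, which completes the 5 highest. GARS (104 ± 33.6), KARS (102 ± 10.0) and FARSA (95.0 ± 2.87 CPM per kb) followed, and the ranges over libraries of neighbours in this order of 8 genes overlapped. AARS lay 4.46 ± 0.16 (SE) above the median gene on the log2 scale (limma, adjusted p = 4.0e-08) and FARSA 4.10 ± 0.07 (adjusted p = 9.9e-10).

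AARS lies on chromosome 16 from 70252295 to 70289543 and SARS on chromosome 1 from 109213918 to 109238169 (GRCh38, GENCODE release 29). The annotation names pseudogenes after 13 of the 41 members, 3 of them after KARS, and 12 members have coding bases overlapped by a gene on the other strand, among them CARS (6.76%, CARS-AS1) and DARS (7.05%, DARS-AS1). Reads of such genes could not be told apart without the counting rule and the strand setting.

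At the lower end of the cytosolic group stood the cysteine enzyme CARS (13.5 ± 5.85 CPM per kb), the histidine enzyme HARS (8.40 ± 0.506) and TARSL2. The place of CARS rests on the exon length, since its log2 difference from the median gene was 1.19 with all exons and 2.51 with the longest coding transcript, then above FARSB (1.82), WARS (1.94) and HARS (1.22). TARSL2, a second threonine enzyme, had 4.72, 4.73 and 4.74 CPM per kb, the narrowest spread of any member, and lay just below the median gene (by limma, log2 difference -0.23 ± 0.09, adjusted p = 0.042). That call was lost without any 1 of the libraries (adjusted p = 0.224, 0.068 and 0.244 without replicates 1, 2 and 3). TARS, its more abundant counterpart, exceeded it 9.69, 12.9 and 12.1 times per kb.

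Among mitochondrial enzymes IARS2, for isoleucine, was far above the rest, at 71.3, 73.9 and 66.4 CPM per kb. YARS2 (22.0 ± 2.79), RARS2 (19.5 ± 0.388), TARS2 (16.9 ± 0.724) and AARS2 (15.1 ± 1.16 CPM per kb) were lower. VARS2, HARS2, CARS2, LARS2 and PARS2 lay between 4.71 and 5.68 CPM per kb and were not distinguished from the median gene (limma, adjusted p from 0.097 to 0.818). With the longest coding transcript 3 of these 5 were called (limma), CARS2 above (log2 difference 1.86, adjusted p = 1.3e-07), VARS2 above (0.54, adjusted p = 1.4e-04) and PARS2 below (-0.78, adjusted p = 3.4e-04). FARS2, the mitochondrial phenylalanine enzyme, stood below it at 2.93, 2.44 and 2.41 CPM per kb (log2 difference -1.10 ± 0.12, limma, adjusted p = 2.5e-05). With that length the call of FARS2 was lost (log2 difference -0.12).

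SARS2, the mitochondrial serine enzyme, had only 16, 24 and 18 counts, or 0.199, 0.174 and 0.232 CPM per kb. It lay far below the median gene (log2 difference -4.65 ± 0.22, limma, adjusted p = 1.5e-07). In the annotation 79.3% of its coding bases overlap the same-strand gene AC011455.2 and 11.1% are overlapped on the other strand by the mitochondrial ribosomal protein gene MRPS12. Its low count is therefore uncertain, because the counting rule for shared bases is not given in the sources used here.

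The subunits of the multisynthetase complex did not have equal message levels. Its 8 enzymes ran from EPRS (106 ± 15.1 CPM per kb) through KARS (102 ± 10.0), IARS for isoleucine (82.5 ± 19.7), MARS for methionine (66.6 ± 13.8), RARS for arginine (57.8 ± 2.59), QARS for glutamine (56.7 ± 4.55) and LARS for leucine (52.8 ± 8.61) to DARS for aspartate (32.4 ± 1.60). The ranges over libraries of MARS, RARS, QARS and LARS overlapped, although MARS was above LARS in every library, and DARS lay below the range of all 7 others. With the longest coding transcript the order changed at the top, to log2 differences from the median gene of 4.40 for KARS, 4.30 for MARS, 3.99 for IARS and 3.83 for EPRS, with DARS still the lowest of the 8 (2.77). The 3 scaffold genes were lower still. AIMP1, which also yields a secreted cytokine, had 16.2, 12.4 and 15.8 CPM per kb, AIMP2 had 10.5, 9.23 and 9.85, and EEF1E1 had 4.39, 4.42 and 5.84. Every scaffold value was below every value of the 8 enzymes. EEF1E1 was not distinguished from the median gene (limma, adjusted p = 0.194). In the annotation 41.5% of the coding bases of EEF1E1 are shared with the readthrough gene EEF1E1-BLOC1S5, and 39.8% of those of AIMP2 are overlapped on the other strand by EIF2AK1, so both levels depend on how such reads were counted.

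Cytosolic phenylalanine charging needs the products of FARSA and FARSB in equal number. FARSA stood at 97.8, 95.2 and 92.0 CPM per kb and FARSB at 30.8, 26.3 and 28.8, so FARSA exceeded FARSB 3.17, 3.62 and 3.19 times in the 3 libraries. The messages of these partners thus differed in the same direction in each library.

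Cytosolic genes also exceeded their mitochondrial counterparts. Of 17 pairs of a cytosolic and a mitochondrial gene for the same amino acid, 16 had the cytosolic gene higher per kb in every library. The median cytosolic gene was 2.65 ± 0.18 (SD, n = 3) above the median mitochondrial gene on the log2 scale, a 6.27-fold difference. With 3 libraries the two-sided exact sign-flip test of a ratio cannot go below p = 0.25, and all 16 pairs reached that value, so no pair can pass a threshold of 0.05.

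**Figure D2:**
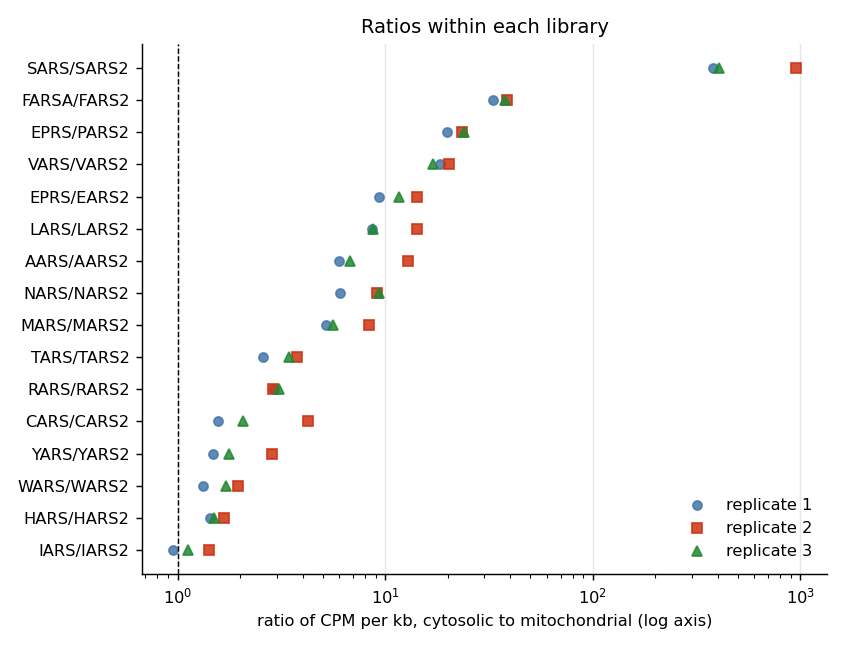
Ratio of CPM per kb of the cytosolic to the mitochondrial gene within each library (log axis), 1 symbol per library, for 16 pairs, with a ratio of 1 as a dashed line. Ratios run from about 1 for IARS to IARS2 to 379, 958 and 404 for SARS to SARS2.

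The ratio was largest for SARS to SARS2, at 379, 958 and 404 in replicates 1, 2 and 3, a value that rests on the uncertain SARS2 count. FARSA exceeded FARS2 33.2, 38.7 and 38.0 times. EPRS exceeded PARS2, the mitochondrial proline enzyme (4.73, 5.23 and 4.16 CPM per kb), 20.0, 23.5 and 23.9 times. At the other end HARS was 1.44, 1.68 and 1.50 times HARS2. The IARS to IARS2 ratio was 0.956, 1.42 and 1.12, so the order of this pair differed between libraries (exact sign-flip test, p = 0.50). That held for the length of all exons only: with the longest coding transcript the mean ratio was 1.56 and all 17 pairs had the cytosolic gene higher in every library, and without division by length the mean ratio was 2.04. Other ratios depend on the exon length too: with the longest coding transcript FARSA to FARS2 fell to 15.2 from 36.6, CARS to CARS2 to 1.57 from 2.40, MARS to MARS2 came to 15.1 in place of 6.25, YARS to YARS2 to 4.89 in place of 1.96, WARS to WARS2 to 2.48 in place of 1.65, and HARS to HARS2 to 2.32 in place of 1.54. HARS and HARS2 start back to back on chromosome 5 (HARS from 140673904 to 140691862, HARS2 from 140691426 to 140699318), and 6.45% of the coding bases of HARS2 are overlapped by HARS on the other strand.

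Synthetase genes known as ATF4 targets were higher in replicate 2 than in the other libraries. All 12 passed the chi-square test of homogeneity, which asks whether the 3 counts differ by more than counting error, and all 12 were highest in replicate 2. Of all detected genes, 68.7% passed this test and 25.8% passed it and were highest in replicate 2. Among the 2422 detected genes with a mean CPM at least that of WARS, the lowest of the 12, the shares were 91.8% and 33.4%. In 11 of the 12 genes replicate 2 was followed by replicate 3 and then replicate 1, an order that 12.1% of detected genes showed while passing the test, and LARS was the exception.

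**Figure D3:**
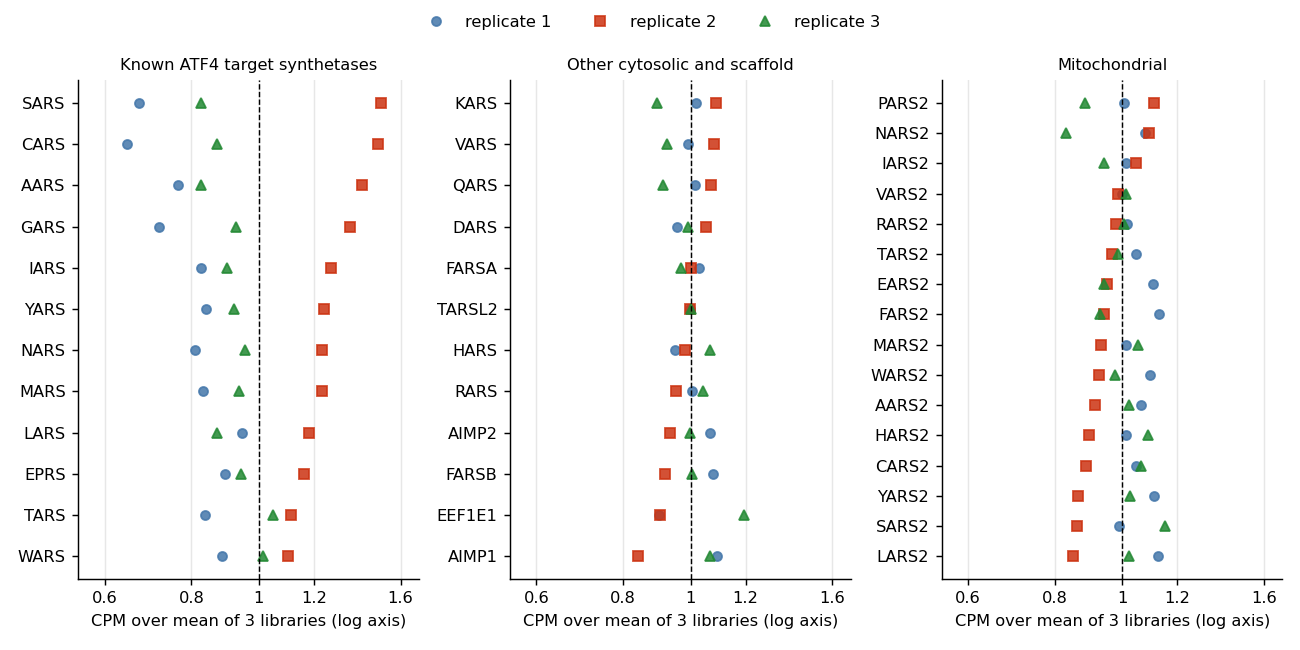
CPM of 40 members in each library divided by its mean over the 3 libraries (log axis), 1 symbol per library, with 1 as a dashed line. In the left panel replicate 2 lies to the right of both other libraries for all 12 known ATF4 targets, while in the middle and right panels it is on either side of 1.

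Between libraries the level of 1 gene is compared as CPM. CARS had 87.5, 201 and 118 CPM in replicates 1, 2 and 3, so that replicate 2 held 2.30 times the level of replicate 1 and 1.71 times that of replicate 3. SARS had 319, 713 and 392 CPM, and its SD of log2 CPM (0.60) was close to that of CARS (0.61). AARS had 436, 805 and 471 CPM, with replicates 1 and 3 within 1.08 times of each other. GARS, the glycine enzyme, had 309.8, 584 and 400.3 CPM. These 4 genes and IARS, with 504, 777 and 549.6 CPM, had the largest SD of log2 CPM of all members, and the 8 largest were all in the ATF4 target list.

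Smaller differences in the same direction were measured in the others. NARS had 375, 571 and 443 CPM and MARS 389, 576 and 438. YARS, the tyrosine enzyme, had 300.0, 443 and 329 CPM. EPRS had 518, 673 and 547 CPM and LARS 405, 507 and 374. TARS, the cytosolic threonine enzyme, had 263, 349 and 329 CPM, and WARS, the tryptophan enzyme, had 85.1, 106 and 97.5. In TARS replicate 2 was only 1.06 times replicate 3, so the separation of replicate 2 is narrow there. WARS had the largest adjusted p of the 12 (chi-square test of homogeneity, 8.3e-15).

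Over the 12 genes the median ratio of replicate 2 to replicate 1 was 1.50 and to replicate 3 1.35, against 0.996 and 1.003 over all detected genes. For the 9 cytosolic or dual enzymes outside the list, DARS, FARSA, FARSB, HARS, KARS, QARS, RARS, TARSL2 and VARS, those medians were 1.03 and 1.03. The median SD of log2 CPM was 0.30 in the ATF4 target list, 0.09 in the other 9 and 0.17 over all detected genes. Of the 9, 8 passed the homogeneity test, as did 68.7% of detected genes and 91.8% of those with a mean CPM at least that of WARS. KARS (423, 452 and 372 CPM), VARS (637, 693 and 594), QARS (271, 286 and 244) and DARS (124, 137 and 129) passed and were also highest in replicate 2, by at most 1.22 times. The matching shares of genes that passed and were highest there were 25.8% and 33.4%. FARSA (238, 232 and 224 CPM) and HARS (62.8, 64.8 and 70.4) had replicate 2 between the other libraries. RARS (198, 188 and 206 CPM) and FARSB (104, 88.5 and 97.1) were lowest there. Whether the groups differ was not tested as a set, since members and lists were chosen with earlier results of these data known.

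Depth went with the pattern, since replicate 2 was the deepest library. After the counts were thinned to the total of the shallowest library all 12 genes still passed the test and were highest in replicate 2, and the same held after an adjustment for exon length and GC content. Thinning keeps the expected CPM ratios between libraries, so it can change little in genes with this many counts. Whether depth or library preparation has a part in the pattern was not tested. Without replicate 2 all 12 still differed between replicates 1 and 3, where 39.0% of detected genes did. The share among genes with a mean CPM at least that of WARS was not taken here. With all 3 libraries that share was above the one over all detected genes.

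Mitochondrial enzymes showed no such excess. Of the 17 genes 14 passed the homogeneity test, where 68.7% of detected genes did. Of the 17, 9 passed and were lowest in replicate 2, against 26.9% of detected genes, while 3 passed and were highest there, against 25.8%. Without replicate 2, 6 of the 17 passed, close to the share of detected genes (39.0%). YARS2 had 52.7, 40.9 and 48.7 CPM, LARS2 39.5, 29.8 and 35.9, and CARS2 58.1, 49.2 and 59.0, so replicate 2 was 0.754 to 0.848 times replicate 1 in these genes. NARS2 (47.3, 48.0 and 36.5 CPM) was instead lowest in replicate 3, as were EARS2 and FARS2, and IARS2 (297, 308 and 277) and PARS2 were highest in replicate 2 by small margins. VARS2 (48.0, 47.4 and 48.6 CPM), RARS2 (50.4, 48.5 and 49.8) and SARS2 did not pass the test. The median ratio of replicate 2 to replicate 1 over the 17 genes was 0.872. YARS2, the 1 member outside the ATF4 target list whose promoter window holds TGATGNAAN, was among the genes lowest in replicate 2. Of the scaffold genes, AIMP1 was lowest in replicate 2 (53.7, 41.4 and 52.6 CPM), EEF1E1 was highest in replicate 3 (9.26, 9.31 and 12.3) and AIMP2 did not pass the test (adjusted p = 0.104). After the length and GC adjustment EEF1E1 (adjusted p = 0.167), RARS (0.0771) and PARS2 (0.0671) no longer passed the chi-square test and VARS2 did (0.00232), and with thinned counts PARS2 (0.279) and MARS2 (0.0785) no longer passed.

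The ratio of cytosolic to mitochondrial genes therefore differed between libraries. AARS exceeded AARS2 6.02, 12.9 and 6.75 times per kb, CARS exceeded CARS2 1.57, 4.25 and 2.08 times, and YARS exceeded YARS2 1.49, 2.84 and 1.77 times. RARS to RARS2, in contrast, was 2.92, 2.89 and 3.07, the narrowest spread of the 17 pairs (SD of the log2 ratio 0.05). The SD of the log2 ratio was 0.59 for AARS to AARS2, 0.74 for CARS to CARS2 and 0.48 for YARS to YARS2, all led by known ATF4 targets. Not every pair led by a known target varied so much. EPRS to PARS2 had an SD of 0.14, near that of VARS to VARS2 (0.13) and FARSA to FARS2 (0.12).

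Most other genes of uncharged tRNA sensing and the ATF4 response were ordered like the known target synthetases, but with a smaller median gap between replicates 2 and 3. Of 16 such genes 15 were detected, all 15 passed the homogeneity test, 12 were highest in replicate 2 and 13 were lowest in replicate 1. Of all detected genes 68.7% passed, 25.8% passed and were highest in replicate 2, and 19.7% passed and were lowest in replicate 1. ASNS, which makes asparagine from aspartate, had 215.5 CPM in replicate 1, 882 in replicate 2 and 326 in replicate 3, a larger gap than that of any synthetase. PHGDH, the first enzyme of serine synthesis, had 144, 360 and 184 CPM, and TRIB3, a pseudokinase that restrains the response, had 60.5, 138 and 84.9. ATF4 itself had 483, 658 and 562 CPM, with 1.36 times as much in replicate 2 as in replicate 1. CHAC1, with 21.1, 48.7 and 46.0 CPM, was nearly level in replicates 2 and 3. Over the 15 genes the median ratio of replicate 2 to replicate 1 was 2.19 and to replicate 3 1.17. The median ratio of replicate 3 to replicate 1 was 1.40. In the 12 known target synthetases these 3 medians were 1.50, 1.35 and 1.14.

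**Figure D4:**
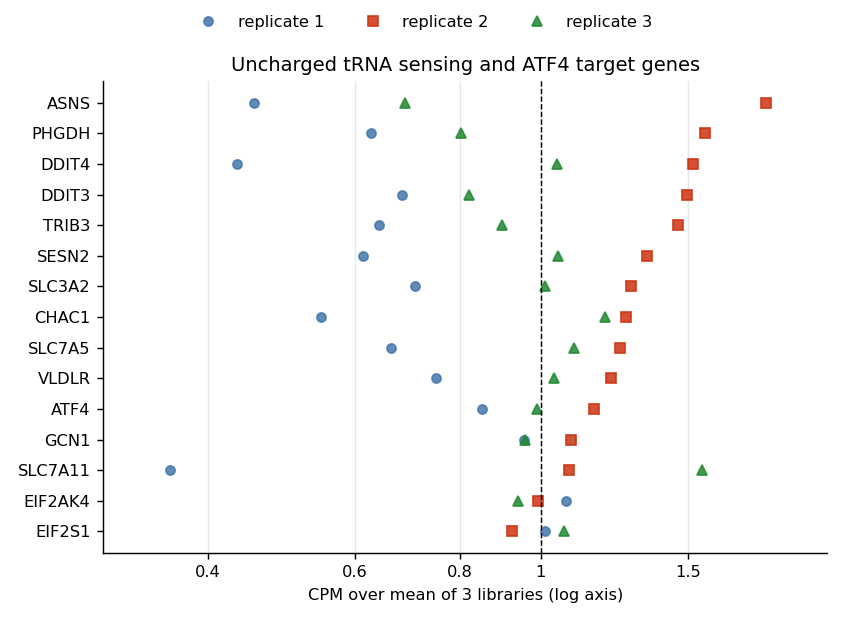
CPM of 15 detected genes of uncharged tRNA sensing and the ATF4 response in each library, divided by the mean over the 3 libraries (log axis), 1 symbol per library, with 1 as a dashed line. Replicate 2 is highest for 12 genes, led by ASNS, and replicate 1 is lowest for 13.

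Not every gene of that list shared the order. SLC7A11, the cystine transporter, had 53.5, 161 and 232 CPM and was highest in replicate 3. EIF2AK4, the sensor kinase, had 67.2, 62.2 and 58.9 CPM, and EIF2S1, which encodes the initiation factor subunit it modifies, had 191, 174 and 201. The serine synthesis gene PSAT1 had only 9, 34 and 6 counts and was not detected by the rule used. On level, 12 of the 15 genes were above the median gene and 1, VLDLR, was below (limma).

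Genes that complete tRNA charging outside the synthetases fell on both sides of the median gene. Mitochondria make glutaminyl-tRNA by amidation, with QRSL1, GATB and GATC, and formylate methionyl-tRNA with MTFMT; of these 4 none was above the median gene and 2 were below, from GATC (6.22 ± 0.477 CPM per kb) to GATB (1.81 ± 0.159). In the selenocysteine route 4 of 6 were above and 2 below, from SEPHS2 (33.7 ± 1.84) to PSTK, the kinase that acts on seryl-tRNA (1.41 ± 0.0559 CPM per kb). Of the 4 fixed proofreading genes that clear mischarged tRNA, 3 were found in the table and all 3 were below the median gene, from DTD2 (3.46 ± 0.182) to AARSD1 (0.553 ± 0.156 CPM per kb). Among 6 genes of tRNA end processing and export 4 were above and 2 below, and the highest, the tRNA exporter XPOT (44.2 ± 7.01 CPM per kb), was the 1 gene of that list highest in replicate 2 (273, 376 and 327 CPM). XPOT is itself known to be activated by ATF4. ELAC1 was the lowest at 0.343 ± 0.0512 CPM per kb.

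Of 7 genes of the elongation factors that carry charged tRNA to the ribosome and of their exchange factors, 6 were detected, 4 above the median gene and 1 below. EEF1A1 and TUFM had higher mean levels than every synthetase. EEF1A1 stood at 2334 ± 229 CPM per kb, a value that can include reads from its many processed pseudogenes, and the mitochondrial factor TUFM at 171 ± 4.95. EEF1A2, the neuronal and muscle form of the factor, was the lowest detected at 0.641 ± 0.343. EEF1G, a subunit of the exchange factor, is listed at 0 in every library, where 3 counts would be 0.121, 0.0702 and 0.125 CPM in replicates 1, 2 and 3. In the annotation 100% of its coding bases are shared with the same-strand gene AP002990.1, and its partners EEF1B2 and EEF1D had 4046 to 8758 counts, so this 0 depends on how shared reads were counted and gives no level of the gene.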

How the data were processed

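The authors deposited 1 table of raw read counts per gene symbol, 1 column per library, matched by title. STAR 2.6.1b and hg38 are named, with no role, per the submitters' processing notes. For the counting program, annotation and strand setting the sources used here give nothing. Of 27587 names, 13 had been turned into dates (0.0665% to 0.0736% of the counts) and were left out. Library sizes were totals times TMM factors (edgeR 4.0.16).

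Exon length (union of exons), overlaps and positions came from GENCODE release 29 on GRCh38; 19590 names matched directly, 481 through older symbols and 7503 not. The table uses older symbols (AARS for AARS1).

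Log2 CPM had a prior count of 2. Levels were tested by the limma-trend method (limma 3.58.1 in R 4.3.3), two-sided, against the median detected gene of each library, and spread by a chi-square test against library sizes, which covers counting error of reads only. The labels give 1 group, so there was no test between groups. The level and spread tests were also run on simulated counts. For the chi-square test these had counting error as their only random spread, so they do not show how it behaves with more. Values in every library are given for the 5 highest and lowest members, complex subunits, FARSA and FARSB, the 3 largest and smallest pair ratios and the 5 largest SDs; others by class. Group counts cover all 41 members, but 1 is not reported here singly. Members and lists were chosen with earlier results of these data known.

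Alternatives were leaving out each library, DESeq2 1.42.0 size factors, plain totals, other filters, a prior count of 0.5, no division by length, the longest coding transcript, protein-coding reference genes, limma-voom, an edgeR test of the intercept and a threshold of 0.01. Thinned counts and a length and GC adjustment were chosen after seeing the data.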

Additional observations from a re-analysis of the deposited data

How the results depend on the processing

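The counts of members above the median gene (32), with spread beyond counting error (36) and of pairs with the cytosolic gene higher (16) stayed within 1.5 times under every alternative run. So did the 12 ATF4 target synthetases highest in replicate 2 and the 9 mitochondrial synthetases lowest there, under other library sizes, thinned counts and the length and GC adjustment. Without replicate 2 the count of members with spread beyond counting error was at that limit, 24 against 36. Of all detected genes 39.0% passed then, against 68.7% with all 3 libraries. The count of members below the median gene was 6 with a filter of 1 CPM, 1 with any gene of at least 1 count kept, and 6 with CPM not divided by length, against 3. The cytosolic minus mitochondrial difference was 2.90 on the log2 scale with the longest coding transcript, against 2.65. Mitochondrial synthetases past the homogeneity test numbered 6 to 10 when 1 library was left out, against 14 with all 3.

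On the log2 scale the difference from the median gene changed sign with any counted gene kept for CARS2 (0.85), EEF1E1 (0.73), HARS2 (0.90), LARS2 (0.80), PARS2 (0.69) and TARSL2 (0.70), where the reference then includes genes of very few counts. It also did so without division by length for AIMP2 (-0.47), CARS2 (1.14) and LARS2 (0.47), and with the longest coding transcript for CARS2 (1.86), EEF1E1 (0.24, not called) and HARS2 (0.0071, not called). Further sign changes of members not called either way were VARS2 with a filter of 1 CPM (-0.17), and HARS2 without replicates 1 or 2 and CARS2 without replicate 2 (at most 0.047). FARS2 was no longer called below the median gene with the longest coding transcript (-0.12) or with any counted gene kept (-0.17). No paired analysis was possible because the labels give 1 group.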
